A study of Homo sapiens with 12 samples.

Results

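The Krüppel-like factors (KLF) are zinc-finger transcription factors, and the 10 family genes KLF2, KLF3, KLF4, KLF5, KLF6, KLF7, KLF9, KLF10, KLF11 and KLF13 were followed here by name, as 10 of the 26334 gene rows of an RNA sequencing table. The cells were HK-2, an established human renal proximal tubular epithelial line that carried a doxycycline-inducible PRCC-TFE3 gene in every group, the fusion of PRCC with the transcription factor gene TFE3 known from translocation renal cell carcinoma. The 4 groups of 3 libraries each were harvested after 48 h: doxycycline (Dox) with the inhibitor MSC2530818 at 100 nM, Dox with DMSO, the inhibitor at 100 nM without Dox, and DMSO as the vehicle. MSC2530818 inhibits CDK8 and CDK19, the kinases of the Mediator complex. All groups grew under puromycin and blasticidin S, and whether the line is 1 clone is not stated. The series describes the 3 replicates of a group as independent. Cells lacking the fusion gene were not given Dox in any group, so an effect of the fusion and one of Dox itself cannot be told apart.

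KLF proteins share a DNA-binding domain of C2H2 zinc fingers at their C-terminal end, with which they bind GC-rich and CACCC sequences, and differ in the N-terminal parts that recruit partners. KLF2, KLF4, KLF5, KLF6 and KLF7 act mainly through coactivators, KLF3 recruits the corepressor CtBP, and KLF9, KLF10, KLF11 and KLF13 can recruit the corepressor SIN3A. Many family genes respond quickly to growth factors, TGF-beta, injury or shear stress, and in the kidney KLF6 has been linked to the injury response of the tubule and the podocyte.

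Values were FPKM, fragments scaled to transcript length and to the size of the library. Genes at an FPKM of 1 or more in 3 or more of the 12 libraries were tested, 12649 in all. A library's values summed to between 429208 and 473950 FPKM, and the number of reads behind them is unknown. TFE3 lay between 81.7 and 87.6 FPKM with Dox plus inhibitor, between 146 and 154 with Dox, between 26.3 and 29.7 with the inhibitor and between 32.7 and 38.9 in DMSO, so the 6 libraries labelled with Dox held more TFE3 than the 6 without it. TFE3 was lower with the inhibitor than without it, both with Dox (ratio of mean FPKM 0.562) and without Dox (0.776). PRCC averaged 28.6 FPKM with Dox plus inhibitor, 41.7 with Dox, 22.8 with the inhibitor and 28.5 in DMSO. The Dox changes with and without inhibitor were thus taken at unequal TFE3 levels, and the part of this in the KLF differences was not tested. Of 18 kidney epithelial and proximal tubule markers 7 passed the filter, among them PAX8, KRT8 and EPCAM, whereas the mature proximal tubule genes LRP2, SLC22A6 and HNF4A had group means of 0 to 0.01 FPKM. The kidney list summed to 710 to 765 FPKM with Dox plus inhibitor, 612 to 642 with Dox, 901 to 1041 with the inhibitor and 735 to 857 in DMSO. The 5 endothelial and 5 leukocyte markers stayed at or under 0.28 FPKM. Of 5 fibroblast and smooth muscle markers ACTA2 and LUM passed, and the list summed to 10.6 to 11.2 FPKM with Dox plus inhibitor, 7.44 to 8.14 with Dox, 7.39 to 7.79 with the inhibitor and 1.87 to 3.29 in DMSO. Different genes made up these sums. LUM averaged 2.88 FPKM with Dox plus inhibitor, 7.48 with Dox, 2.36 with the inhibitor and 2.17 in DMSO. ACTA2 averaged 7.84, 0.28, 5.19 and 0.46 FPKM in the same order. The sums of both lists moved with the treatments, and their part in the KLF differences given here was not tested.

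KLF6 was the most abundant of the 10 transcripts per unit length, with a median of 43.2 FPKM over the 12 libraries and a range of 29.4 to 67.7. KLF5 (15.1 to 25.0 FPKM) and KLF10 (13.8 to 21.7) followed. KLF11 (10.6 to 12.9), KLF7 (6.12 to 14.4), KLF3 (5.22 to 6.98) and KLF13 (2.82 to 5.64) formed the middle of the order. KLF2 ran from 1.25 to 3.28 FPKM, and KLF4 from 0.58 to 1.29, reaching an FPKM of 1 in 5 of 12 libraries. KLF9, a repressor and a classic glucocorticoid target, lay between 0.08 and 0.32 FPKM in all 12 libraries. It did not pass the filter and has no test. The remaining 9 were tested.

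**Figure D1:**
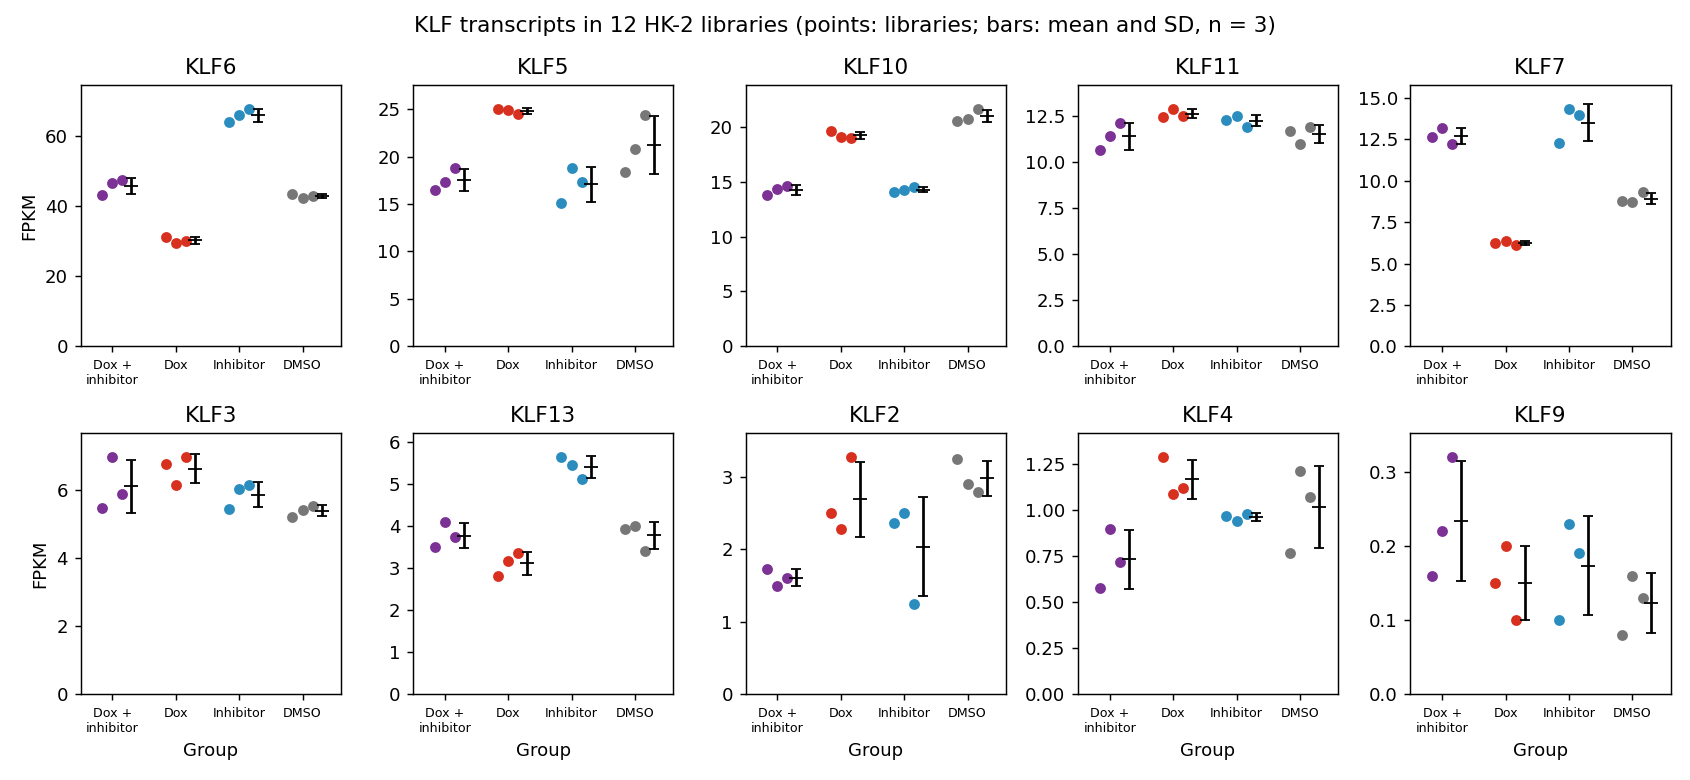
FPKM (vertical axis, from 0) of the 10 KLF genes in each library of the Dox plus inhibitor, Dox, inhibitor and DMSO groups, with the mean and SD (n = 3) as black bars, genes in falling order of mean level. The means of KLF6, KLF7 and KLF13 are highest with the inhibitor and lowest with Dox, and KLF10 is lower in all 6 libraries with inhibitor (13.8 to 14.7 FPKM) than in the 6 without it (19.0 to 21.7 FPKM).

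Summed over the 10 genes, KLF transcripts came to 114 ± 5.06 FPKM with Dox plus inhibitor, 107 ± 1.35 with Dox, 137 ± 4.55 with the inhibitor and 119 ± 3.74 in DMSO (SD, n = 3 each). KLF6 alone made up 39.9% to 40.3% of that sum with Dox plus inhibitor, 27.9% to 28.9% with Dox, 46.7% to 48.7% with the inhibitor and 34.7% to 37.3% in DMSO. The 4 ranges of this share did not overlap.

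**Figure D2:**
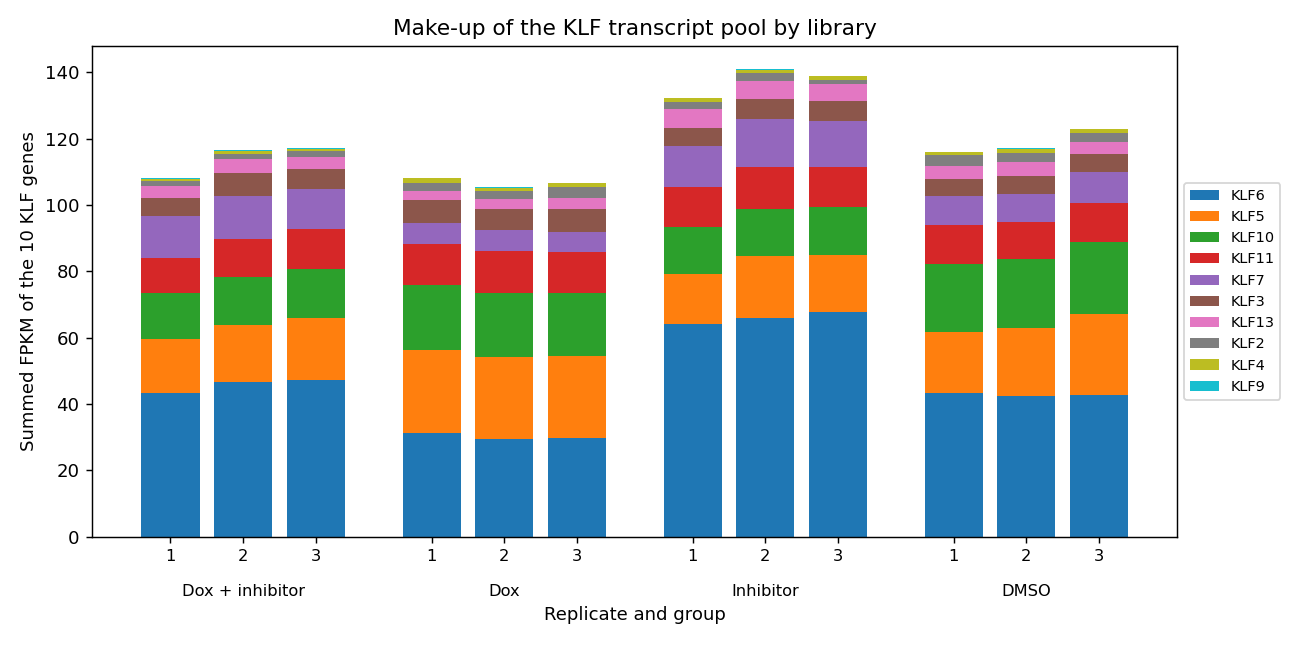
Summed FPKM of the 10 KLF genes (vertical axis) in each library, stacked by gene, with replicates 1 to 3 of the Dox plus inhibitor, Dox, inhibitor and DMSO groups side by side. The inhibitor libraries reach 132 to 141 FPKM and the Dox libraries 105 to 108, and the KLF6 block spans 64.0 to 67.7 FPKM in the inhibitor libraries and 29.4 to 31.3 FPKM in the Dox libraries.

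All fold changes were estimated on the log2(FPKM + 1) scale, which understates the change of a gene with a low FPKM, with 1 limma model of all 12 libraries, and a gene was called at a two-sided Benjamini-Hochberg adjusted p under 0.05 over all tested genes. Errors of log2 changes are standard errors. With Dox against DMSO, 2 of 9 members were called, KLF6 and KLF7, both lower, against 17.9% of all tested genes called and 7.31% called lower. For Dox plus inhibitor against the inhibitor, 2 of 9 were called, KLF6 and KLF13, both lower, against 18.2% of all genes called and 6.06% called lower. With the replicate number as a block 2 members were again called in that comparison, and 4548 genes were called in all, against 2304 without the block. With the inhibitor against DMSO, 5 of 9 were called (38.0% of all genes), with KLF6, KLF7 and KLF13 higher, against 11.7% of all genes higher, and KLF10 and KLF5 lower, against 26.3% lower. Adding the inhibitor to Dox, against Dox alone, gave 6 calls of 9 (32.1% of all genes), with KLF6 and KLF7 higher, against 11.3% of all genes higher, and KLF2, KLF4, KLF5 and KLF10 lower, against 20.8% lower. For both agents against DMSO 3 of 9 were called (25.6% of all genes), KLF7 higher, against 10.6% of all genes higher, and KLF2 and KLF10 lower, against 15.0% lower. The 3 comparisons with DMSO share the DMSO libraries, so their counts are not independent of each other. In bulk RNA, fewer cells with a transcript and less of it per cell cannot be told apart. The median log2 change was -0.12 over the 9 members and 0.04 over all tested genes for Dox against DMSO. It was 0.08 over the members and -0.12 over all tested genes for the inhibitor against DMSO. Median-ratio scaling of the libraries moved the all-gene median for the inhibitor by 0.11, to -0.01, so a value for the inhibitor against DMSO is to be read against a general shift of that size.

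The direction of the calls over all genes depended on this scaling. After median-ratio scaling 1036 genes were higher and 1350 lower with Dox against DMSO (as deposited 1344 and 925), and 4 members were lower, KLF10 and KLF13 beside KLF6 and KLF7. With Dox plus inhibitor against the inhibitor 658 were higher and 1208 lower (as deposited 1537 and 767), with 2 members lower. For the inhibitor against DMSO 2220 were higher and 1815 lower (as deposited 1479 and 3323), with 4 members higher, KLF11 added, and 1 lower, KLF10. Between Dox plus inhibitor and Dox 1956 were higher and 1675 lower (as deposited 1434 and 2629), with 3 members higher, KLF13 added, and 2 lower, KLF5 and KLF10. For both agents against DMSO 1552 were higher and 1555 lower (as deposited 1343 and 1895), with 1 member higher and 2 lower.

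**Figure D3:**
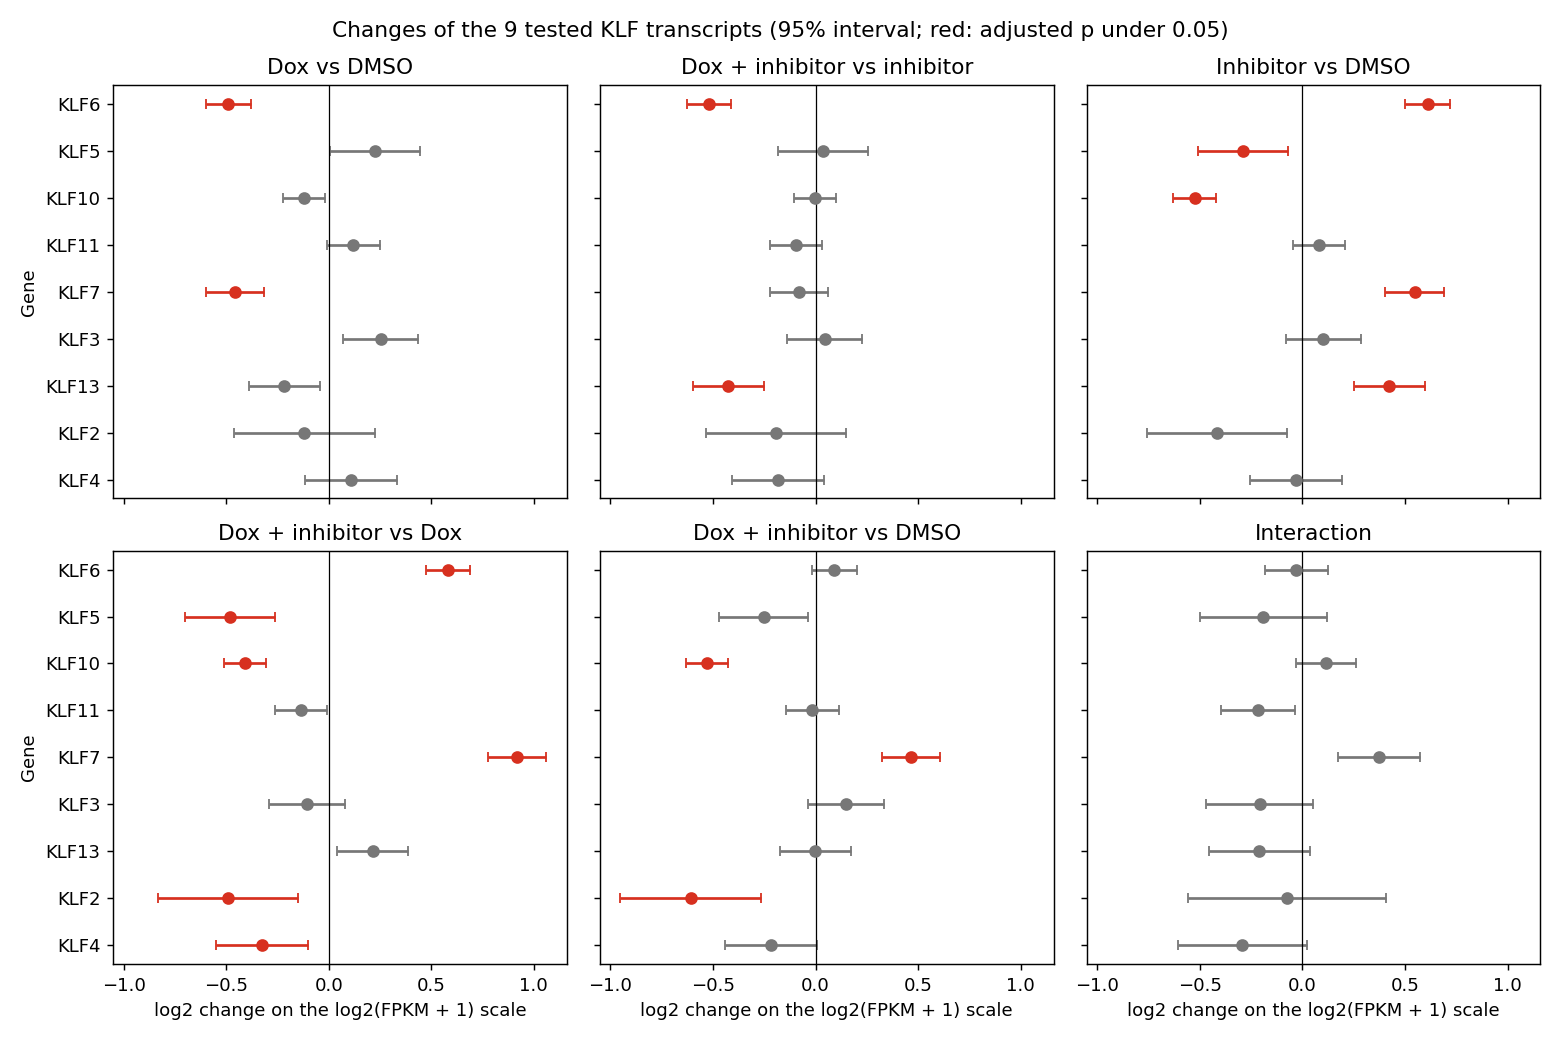
Log2 change (horizontal axis, log2(FPKM + 1) scale) with its 95% interval for the 9 tested KLF genes in 5 comparisons and for the interaction (the change with Dox in inhibitor-treated cells minus that in cells without inhibitor). Red marks an adjusted p under 0.05. KLF6 lies at -0.49 and -0.52 for Dox without and with inhibitor, and KLF7 at -0.45 and -0.08.

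KLF6, a ubiquitous zinc-finger activator with growth-restraining roles (chromosome 10, 3775996 to 3785281, minus strand, GRCh38), went down with Dox and up with the inhibitor. Its values were 43.2, 46.6 and 47.3 FPKM with Dox plus inhibitor, 31.3, 29.4 and 29.9 with Dox, 64.0, 65.9 and 67.7 with the inhibitor and 43.3, 42.3 and 42.7 in DMSO. Every Dox library was below, and every inhibitor library above, all DMSO libraries, while the Dox plus inhibitor libraries overlapped DMSO. Relative to DMSO, KLF6 fell by 0.49 ± 0.05 with Dox (ratio of mean FPKM 0.705, limma adjusted p = 5.3e-05) and rose by 0.61 ± 0.05 with the inhibitor (ratio 1.54, adjusted p = 4.3e-06). Dox gave nearly the same change in inhibitor-treated cells, -0.52 ± 0.05 (ratio 0.693, adjusted p = 7.7e-05), and in Dox-treated cells it rose by 0.58 ± 0.05 (ratio 1.51, adjusted p = 6.8e-06). The interaction was -0.03 with a 95% interval of -0.18 to 0.12. With both agents the change against DMSO was 0.09 ± 0.05 (adjusted p = 0.204, 95% interval -0.02 to 0.20), beside a sum of the single changes of 0.12. In order of level KLF6 thus ran from the inhibitor group down through Dox plus inhibitor and DMSO to Dox, and the middle pair overlapped as deposited. The difference of that pair was called in 1 alternative (0.15, limma adjusted p = 0.0451). There the trend over transcript length and GC content was removed and the replicate number was a block.

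KLF7, the close relative of KLF6 with known roles in neuronal growth (chromosome 2, 207074137 to 207167267, minus strand), responded in the same directions to each single agent but followed the inhibitor when both were given. It was at 12.7, 13.2 and 12.2 FPKM with Dox plus inhibitor, 6.24, 6.35 and 6.12 with Dox, 12.3, 14.4 and 13.9 with the inhibitor and 8.75, 8.70 and 9.31 in DMSO. All 6 libraries with inhibitor stood above all 6 without it. KLF7 fell by 0.45 ± 0.06 with Dox against DMSO (ratio of mean FPKM 0.699, limma adjusted p = 5.8e-04) and rose by 0.55 ± 0.06 with the inhibitor against DMSO (ratio 1.51, adjusted p = 7.1e-05). In Dox-treated cells it rose with the inhibitor by 0.92 ± 0.06 (ratio 2.03, adjusted p = 1.7e-06), the largest change of any member in any comparison. With both agents it stood 0.46 ± 0.06 above DMSO (ratio 1.42, adjusted p = 4.05e-04), beside a sum of the single changes of 0.09. In inhibitor-treated cells the Dox change was -0.08, with a 95% interval of -0.22 to 0.06 (adjusted p = 0.37), and those 2 groups overlapped. The difference between the Dox changes with and without inhibitor was 0.37 ± 0.09 with a 95% interval of 0.17 to 0.57. It missed the threshold (adjusted p = 0.057) and passed it with a pseudocount of 0.1 (0.42, adjusted p = 0.0485), after quantile normalization (0.37, adjusted p = 0.043) and in 2 further settings given under the processing, over an adjusted p range of 0.0323 to 0.149 in all alternatives.

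KLF13, a regulator of the chemokine gene CCL5 in lymphocytes (chromosome 15, 31326855 to 31435665, plus strand), was higher with the inhibitor alone than with any other treatment. The libraries held 3.50, 4.08 and 3.73 FPKM with Dox plus inhibitor, 2.82, 3.17 and 3.35 with Dox, 5.64, 5.44 and 5.12 with the inhibitor and 3.93, 3.99 and 3.41 in DMSO. The 3 inhibitor libraries stood above the other 9, and Dox plus inhibitor overlapped DMSO. KLF13 rose by 0.42 ± 0.08 with the inhibitor against DMSO (ratio of mean FPKM 1.43, limma adjusted p = 0.0016) and fell by 0.43 ± 0.08 with Dox plus inhibitor against the inhibitor (ratio 0.698, adjusted p = 0.0049). Dox against DMSO gave -0.22 with a 95% interval of -0.39 to -0.04 (adjusted p = 0.085), a call that was made after median-ratio scaling (-0.25, adjusted p = 0.044) and after quantile normalization (-0.31, adjusted p = 0.033). With both agents the change against DMSO was -0.0016, with an interval of -0.18 to 0.17. The interaction was -0.21 with an interval of -0.46 to 0.04 (adjusted p = 0.46). For Dox plus inhibitor against Dox it was 0.21 (adjusted p = 0.0596), a value called after median-ratio scaling (0.28, adjusted p = 0.0203), and without DMSO replicate 3 the Dox change against DMSO was called as well (-0.27, adjusted p = 0.0424).

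The promoters of these 3 genes are printed because KLF6, KLF7 and KLF13 moved together with the inhibitor. RefSeq windows of 250 bases before each annotated start (GRCh38.p14) were matched for 8 of the 10 members, with 13 starts in all, and those shown are trimmed to the bases before the first annotated exon. Capitals mark the CCAAT box (ATTGG on the other strand) and the E-box CACGTG, the core letters that TFE3 and its relatives of the MiT/TFE family, as well as MYC and other helix-loop-helix factors, can bind. For KLF7, which has 4 starts, the outermost is shown. The stretches are chr10:3785282-3785459 for KLF6 (minus strand), chr2:207167268-207167496 for KLF7 (minus strand) and chr15:31326585-31326834 for KLF13 (plus strand).
KLF6: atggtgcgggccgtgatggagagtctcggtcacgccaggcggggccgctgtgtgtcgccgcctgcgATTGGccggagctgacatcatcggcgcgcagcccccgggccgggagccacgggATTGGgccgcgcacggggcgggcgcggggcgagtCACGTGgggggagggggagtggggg
KLF7: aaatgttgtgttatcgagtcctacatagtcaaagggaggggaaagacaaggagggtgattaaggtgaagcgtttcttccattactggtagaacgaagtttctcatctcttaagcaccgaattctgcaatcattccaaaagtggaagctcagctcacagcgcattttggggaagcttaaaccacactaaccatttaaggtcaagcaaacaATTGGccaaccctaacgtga
KLF13: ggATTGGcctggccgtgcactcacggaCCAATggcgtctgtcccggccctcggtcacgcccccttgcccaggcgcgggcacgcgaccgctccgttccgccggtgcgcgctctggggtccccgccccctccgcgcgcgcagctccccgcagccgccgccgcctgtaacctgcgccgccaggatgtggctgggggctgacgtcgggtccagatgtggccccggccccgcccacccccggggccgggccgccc

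Over the 13 windows of the 8 members, the CCAAT box was in 6, those of KLF6, KLF9 and KLF13, 1 of KLF5 and 2 of the 4 of KLF7, and it is in 32.0% of all 35116 RefSeq windows of 250 bases on either strand. The E-box CACGTG was in 4 of the 13 windows, 1 each of KLF4, KLF6, KLF7 and KLF11, and in 6.34% of all windows. It is shown with 10 bases on each side for comparison, from chr9:107489911-107489936 for KLF4 (minus strand), chr10:3785291-3785316 for KLF6 (minus strand), chr2:207134308-207134333 for KLF7 (minus strand) and chr2:10043637-10043662 for KLF11 (plus strand), with the box in capitals. The boxes of KLF4, KLF7 and KLF11 belong to inner starts and lie within the gene as GENCODE 29 annotates it.
KLF4: cccccgccccCACGTGcgccgagttt
KLF6: cggggcgagtCACGTGgggggagggg
KLF7: gaacgttgtaCACGTGtgcagctgtg
KLF11: gcccgcagccCACGTGcggccgctgc

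The box began 157 bases before the start in KLF4, 97 in KLF6, 186 in KLF7 and 182 in KLF11. Of these 4, KLF6 and KLF7 were called lower with Dox against DMSO, beside 7.31% of all tested genes, and KLF4 and KLF11 were not called. KLF3 and KLF10 had no window and were not searched. Whether the box has a part in these changes was not tested. The GC box GGGCGG, a form of the KLF and SP target sequence, was in 8 of the 13 windows and in 42.6% of all windows. CACCC was in 6 of the 13 and in 54.7% of all windows. The AP-1 site TGANTCA was in 0 of the 13 and in 6.57% of all windows. A match is a run of letters on either strand and says nothing about binding in these cells.

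KLF10, a TGF-beta inducible repressor (chromosome 8, 102648779 to 102655902, minus strand), was lower in every library with the inhibitor. Its values were 13.8, 14.4 and 14.7 FPKM with Dox plus inhibitor, 19.6, 19.1 and 19.0 with Dox, 14.1, 14.3 and 14.5 with the inhibitor and 20.6, 20.8 and 21.7 in DMSO. The libraries with inhibitor and those without it did not overlap, with or without Dox. KLF10 fell by 0.53 ± 0.05 with the inhibitor against DMSO (ratio of mean FPKM 0.680, limma adjusted p = 9.4e-06), by 0.41 ± 0.05 with Dox plus inhibitor against Dox (ratio 0.740, adjusted p = 6.8e-05) and by 0.53 ± 0.05 with both agents against DMSO (ratio 0.679, adjusted p = 1.9e-05). Dox against DMSO gave -0.12 with a 95% interval of -0.22 to -0.02. That Dox value was not called (adjusted p = 0.108) although the groups did not overlap, and was called after median-ratio scaling (-0.17, adjusted p = 0.0276). In inhibitor-treated cells the Dox change was -0.0028, with an interval of -0.11 to 0.10, and it was called with the trend over transcript length and GC content removed (-0.14, adjusted p = 0.0341).

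KLF11, the second TGF-beta inducible repressor of the family and a regulator of monoamine oxidase genes (chromosome 2, 10042849 to 10054836, plus strand), was called in none of the 6 comparisons. It held 11.4 ± 0.7 FPKM with Dox plus inhibitor, 12.6 ± 0.2 with Dox, 12.2 ± 0.3 with the inhibitor and 11.5 ± 0.5 in DMSO (SD, n = 3 each). Its 95% intervals ran from -0.01 to 0.25 for Dox and from -0.05 to 0.21 for the inhibitor, both against DMSO. After median-ratio scaling the inhibitor value was 0.19 and was called (adjusted p = 0.024). An antisense gene overlaps exons of KLF11 in GENCODE 29, and whether counting was stranded is not stated.

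KLF2 and KLF4, both induced through ERK5 and MEF2 in endothelium, were low in these cells. Both had their lowest group mean with both agents. Against the inhibitor alone that lower level was called for neither (limma adjusted p = 0.387 for KLF2 and 0.213 for KLF4). KLF2 (chromosome 19, 16324817 to 16327874, plus strand) stood at 1.73, 1.50 and 1.60 FPKM with Dox plus inhibitor, 2.51, 2.28 and 3.28 with Dox, 2.36, 2.50 and 1.25 with the inhibitor and 3.25, 2.91 and 2.79 in DMSO. The Dox plus inhibitor libraries lay below every Dox and every DMSO library, and inhibitor replicate 3 was the lowest of the 12. With both agents KLF2 fell by 0.61 ± 0.16 against DMSO (ratio of mean FPKM 0.540, limma adjusted p = 0.015), a call that ended without Dox plus inhibitor replicate 2 (-0.58, adjusted p = 0.053). It fell by 0.49 ± 0.16 with Dox plus inhibitor against Dox (ratio 0.599, adjusted p = 0.032). That call ended with no filter (adjusted p = 0.059), after median-ratio scaling (-0.43, adjusted p = 0.065) or quantile normalization (-0.42, adjusted p = 0.088), and without any one of Dox replicates 1 and 3 and Dox plus inhibitor replicates 1 to 3 (-0.52 to -0.38, adjusted p 0.0533 to 0.125). The inhibitor value against DMSO was -0.42 with a 95% interval of -0.76 to -0.08 (adjusted p = 0.0545). With the length and GC trend removed it was called without the replicate block (-0.44, adjusted p = 0.0095) and with it (-0.44, adjusted p = 0.014). It was also called without inhibitor replicate 1 (-0.50, adjusted p = 0.0400) or 2 (-0.53, adjusted p = 0.0328), while without inhibitor replicate 3 it was -0.21 (adjusted p = 0.168). Without the same library, Dox plus inhibitor against the inhibitor was called (-0.39, adjusted p = 0.0383, against -0.19 with all libraries).

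KLF4, also known as a pluripotency and epithelial differentiation factor (chromosome 9, 107484852 to 107490482, minus strand), had 0.58, 0.90 and 0.72 FPKM with Dox plus inhibitor, 1.29, 1.09 and 1.12 with Dox, 0.97, 0.94 and 0.98 with the inhibitor and 0.77, 1.21 and 1.07 in DMSO. Dox plus inhibitor lay below Dox in all libraries and overlapped DMSO. Its change was -0.22 against DMSO (limma adjusted p = 0.145) and -0.18 against the inhibitor (adjusted p = 0.213), neither of them called. KLF4 fell by 0.32 ± 0.10 with Dox plus inhibitor against Dox (ratio of mean FPKM 0.629, limma adjusted p = 0.031). The call ended after median-ratio scaling (-0.28, adjusted p = 0.059), after quantile normalization (-0.28, adjusted p = 0.051), with the trend over transcript length and GC content removed (-0.30, adjusted p = 0.081) and without any one of Dox replicates 1 to 3 or Dox plus inhibitor replicates 1 and 3 (-0.35 to -0.26, adjusted p 0.055 to 0.11). Processed pseudogene copies of both genes, as of KLF3 and KLF7, are annotated in GENCODE 29, between which fragments could have been divided.

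KLF5, a growth-associated factor of epithelia (chromosome 13, 73054976 to 73077542, plus strand), was lower with the inhibitor in Dox-treated cells. The libraries gave 16.5, 17.3 and 18.7 FPKM with Dox plus inhibitor, 25.0, 24.9 and 24.5 with Dox, 15.1, 18.8 and 17.3 with the inhibitor and 18.4, 20.8 and 24.4 in DMSO. The DMSO libraries spread most and overlapped the inhibitor libraries. KLF5 fell by 0.48 ± 0.10 with Dox plus inhibitor against Dox (ratio of mean FPKM 0.706, limma adjusted p = 0.0037), and the groups did not overlap. It fell by 0.29 ± 0.10 with the inhibitor against DMSO (ratio 0.807, adjusted p = 0.0395). That call ended after median-ratio scaling (-0.17, adjusted p = 0.22) and after quantile normalization (-0.19, adjusted p = 0.13). It ended with no filter (-0.29, adjusted p = 0.064) and in a fit of those groups alone (-0.29, adjusted p = 0.13). With the length and GC trend removed it ended without the replicate block (-0.16, adjusted p = 0.11) and with it (-0.16, adjusted p = 0.053). The call also ended without any one of DMSO replicates 2 and 3, Dox replicates 1 to 3, inhibitor replicates 1 and 3 and Dox plus inhibitor replicate 2 (-0.30 to -0.19, adjusted p 0.0534 to 0.141). For Dox against DMSO the value was 0.23 with a 95% interval of 0.01 to 0.45 (adjusted p = 0.145), which was called without DMSO replicate 3 (0.33, adjusted p = 0.0291) and was 0.13 without DMSO replicate 1 (adjusted p = 0.433). With both agents against DMSO it was -0.25 (adjusted p = 0.0852), which was called without DMSO replicate 1 (-0.35, adjusted p = 0.0263) and was -0.15 without DMSO replicate 3 (adjusted p = 0.243). The change with both agents was also called with the length and GC trend removed (-0.25, limma adjusted p = 0.0232). It was called with the replicate block as well, both alone (-0.25, adjusted p = 0.0304) and with that trend removed (-0.25, adjusted p = 0.0086).

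KLF3, the CtBP-recruiting repressor (chromosome 4, 38664196 to 38701042, plus strand), was at 5.46, 6.98 and 5.89 FPKM with Dox plus inhibitor, 6.78, 6.14 and 6.97 with Dox, 5.44, 6.03 and 6.14 with the inhibitor and 5.22, 5.42 and 5.54 in DMSO. The 3 Dox libraries lay above the 3 DMSO libraries, and the other groups overlapped their neighbours. Dox against DMSO gave 0.25 with a 95% interval of 0.07 to 0.44 (limma adjusted p = 0.058), which was called without inhibitor replicate 1 or Dox plus inhibitor replicates 1 or 2 (0.25 each, adjusted p 0.0314 to 0.0485). The gene was called in none of the 6 comparisons. An antisense gene, KLF3-AS1, overlaps its exons.

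In the interaction 0 of the 9 members were called by limma, against 2.82% of all tested genes (0.909% higher, 1.91% lower). KLF11 stood at -0.22 (adjusted p = 0.24), KLF4 at -0.29 (adjusted p = 0.41) and KLF2 at -0.07 (adjusted p = 0.94). The widest 95% interval was that of KLF2, from -0.56 to 0.41.

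Of the other KLF genes, KLF8, KLF12 and KLF16 passed the filter. Of these 3, 0 were called for Dox or for the inhibitor against DMSO (limma), while after median-ratio scaling KLF16 was called lower with Dox (-0.42, adjusted p = 0.041) and KLF8 higher with the inhibitor (0.34, adjusted p = 0.042). As deposited, KLF8 was higher with both agents against DMSO (0.45 ± 0.12, adjusted p = 0.016). All counts of listed genes are to be read beside the shares over all tested genes given above, for Dox 10.6% higher and 7.31% lower and for the inhibitor 11.7% higher and 26.3% lower, both against DMSO. The related SP genes, which bind the same GC-rich sequences, had 0 of 5 tested members called for Dox against DMSO and 3 of 5 lower with the inhibitor against DMSO. Among these SP3 was at -0.58 (adjusted p = 0.016) and SP1 at -0.31 (adjusted p = 4.1e-04), and the third, SP2, was not called after median-ratio scaling.

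Partners and regulators of KLF proteins were listed from general knowledge. Of 8 genes of TGF-beta and SMAD signalling, 4 were lower with Dox against DMSO, among them SMAD3 (-0.60, limma adjusted p = 2.0e-05) and TGFB1 (-0.35, adjusted p = 0.030). With the inhibitor against DMSO 2 were higher and 3 lower, TGFB2 at 0.67 (adjusted p = 7.9e-04) and TGFB1 at -0.60 (adjusted p = 6.2e-04), while SMAD2 and TGFBR2 were not called after median-ratio scaling. Of 6 tested genes of the glucocorticoid receptor list, 3 were lower with Dox, with SGK1 at -0.82 (adjusted p = 1.1e-06) and DUSP1 at -0.28 (adjusted p = 0.023). The inhibitor gave 3 higher and 2 lower, with the receptor gene NR3C1 at -0.61 (adjusted p = 0.0019) and TSC22D3 at 0.58 (adjusted p = 8.0e-04). SGK1 was the one gene of that list called in the interaction (0.76, adjusted p = 2.3e-04). Of 11 corepressors and coactivators 1 was higher and 1 lower with Dox, KAT2B at 0.46 (adjusted p = 0.0015) and CTBP2 at -0.15 (adjusted p = 0.042), and 6 were lower with the inhibitor, KAT2B at -0.77 (adjusted p = 2.0e-05) and CREBBP at -0.35 (adjusted p = 0.0024). One of those 6, HDAC1, was not called after median-ratio scaling. The ERK5 and MEF2 list had 0 of 9 called with Dox and 2 lower with the inhibitor, MEF2D (-0.28) and MAP3K3 (-0.21), both not called after median-ratio scaling (-0.17 and -0.11), which instead called MAPK7, the ERK5 gene, higher (0.30, adjusted p = 0.030). Of 6 ubiquitin ligases that act on KLF proteins, SMURF2 was lower with Dox (-0.30, adjusted p = 0.023) and 0 were called with the inhibitor.

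Of 15 genes described as KLF targets in various tissues, 9 passed the filter. With Dox against DMSO 1 was higher and 2 were lower (limma), the CDK inhibitor gene CDKN1A at 0.92 (adjusted p = 8.6e-05) and the cyclin gene CCND1 at -0.46 (adjusted p = 1.9e-04), with SMAD7 the other. With the inhibitor against DMSO 3 were higher and 4 lower, with TXNIP at -1.19 (adjusted p = 6.8e-07) and S1PR1 at -0.87 (adjusted p = 4.5e-05), while ENG was not called after median-ratio scaling. Both CDKN1A (-0.92, adjusted p = 0.0050) and TXNIP (0.55, adjusted p = 0.018) were called in the interaction. Medians of these 9 genes were -0.19 for Dox and -0.10 for the inhibitor, beside 0.04 and -0.12 over all tested genes.

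Over all lists, 12 genes were called for Dox against DMSO, and median-ratio scaling ended 0 of these calls and added 3 (KLF16, SIN3A and TXNIP, all lower). Of 28 called for the inhibitor against DMSO it ended 7 and added 4 (KLF8, LGALS3, MAPK7 and SIN3B, all higher).

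The same lists were read in the other 3 comparisons, which share libraries with each other and with those above. For Dox plus inhibitor against the inhibitor, SMAD3 was at -0.37 (limma adjusted p = 0.0012) and SMAD7, the inhibitory SMAD, at -0.34 (adjusted p = 0.0043), the 2 called genes of the TGF-beta list. CCND1 fell by 0.60 (adjusted p = 7.4e-05) and MAOA rose by 0.36 (adjusted p = 0.016), the largest of 3 higher and 3 lower targets. TSC22D3 was at -0.52 (adjusted p = 0.0048) and NR3C1 at 0.42 (adjusted p = 0.032), of 2 higher and 2 lower glucocorticoid genes. KAT2B (0.37, adjusted p = 0.0078) and HDAC2 (0.36, adjusted p = 0.047) led 4 higher cofactors. Of the 15 listed genes called there, median-ratio scaling ended 4 calls, HDAC2 and NR3C1 among them, and added KLF16, and removal of the length and GC trend ended 8, MAOA and KAT2B among them, and added 3. The replicate block ended 0 and added 11. Over all tested genes 12.2% were higher and 6.06% lower.

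In Dox-treated cells given the inhibitor, against Dox alone, TGFB2 rose by 1.23 (limma adjusted p = 1.0e-05) and SMAD3 by 0.59 (adjusted p = 1.0e-05), with 2 TGF-beta genes lower. SGK1 rose by 1.22 (adjusted p = 2.8e-08) and FKBP5 fell by 0.36 (adjusted p = 9.7e-04), of 3 higher and 2 lower glucocorticoid genes. TXNIP fell by 0.63 (adjusted p = 8.1e-05) and CDKN1A by 0.61 (adjusted p = 8.2e-04), of 2 higher and 5 lower targets. KAT2B (-0.86, adjusted p = 9.2e-06) and CREBBP (-0.22, adjusted p = 0.031) led 5 lower cofactors, and SP1 (-0.17), MEF2D (-0.29) and SIAH1 (-0.34) were the single calls of their lists. Of the 23 listed genes called, median-ratio scaling ended 10 calls, all lower genes, CREBBP, SP1, MEF2D and SIAH1 among them, and added 5 (LGALS3, MAPK7, SIN3A, SMURF2 and TGFBR1, all higher). Over all tested genes 11.3% were higher and 20.8% lower. For both agents against DMSO, TGFB2 (0.94, adjusted p = 1.5e-04) and TGFB1 (-0.74, adjusted p = 2.8e-04) led 1 higher and 3 lower TGF-beta genes, and TXNIP (-0.85, adjusted p = 1.7e-05) and S1PR1 (-0.51, adjusted p = 0.0029) led 1 higher and 4 lower targets. KAT2B (-0.39) and CTBP2 (-0.32) led 3 lower cofactors, SP2 (-0.28) and SP1 (-0.25) were the 2 lower SP genes, MEF2A (0.40) and MAP3K3 (-0.32) led 1 higher and 2 lower ERK5 and MEF2 genes, and SGK1 (0.40) was the one glucocorticoid gene called. Of 18 called, median-ratio scaling ended 2, SP2 and MEF2D, and added 0, beside 10.6% of all genes higher and 15.0% lower.

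For the 3 members with the widest range of group means, the genes with the most similar profile were taken by Pearson r of log2(FPKM + 1) over the 12 libraries, a description that mostly reflects the 4 group means. For KLF6 they were LTBP2 (r = 0.993), SLN (0.990) and NRP2 (0.989). The latent TGF-beta binding protein gene LTBP2 averaged 6.01 FPKM with Dox plus inhibitor, 2.44 with Dox, 11.9 with the inhibitor and 5.49 in DMSO. For KLF7 they were JAK1 (r = 0.991), NTN4 (0.988) and EDN1 (0.987), of which the endothelin gene EDN1 averaged 22.9 FPKM with Dox plus inhibitor, 2.38 with Dox, 31.1 with the inhibitor and 6.34 in DMSO. For KLF13 they were TYMP (r = 0.978), NKAIN4 (0.976) and RNF215 (0.973). TYMP averaged 3.36 FPKM with Dox plus inhibitor, 1.55 with Dox, 8.08 with the inhibitor and 3.38 in DMSO.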

How the data were processed

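Poly(A) RNA was sequenced from 12 libraries of HK-2 cells, made with a stranded TruSeq mRNA kit per the labels' protocols. The authors deposited FPKM values, 1 column per library. Trim Galore 0.6.7, Salmon 1.9.0 and the builds GRCh38.p13 and hg38 are named, per the submitters' processing notes, without role. How transcripts were annotated and summed, and FPKM computed, is not given in the sources used here. Columns were assigned to samples through their headers. Read depth is unknown, so no counting interval was calculated.

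Values were analysed as log2(FPKM + 1) with limma 3.58.1 in R 4.3.3 (4 group means, 8 residual degrees of freedom, intensity trend, empirical Bayes), which was tested on simulated data. Genes with an FPKM of 1 in at least 3 libraries were tested. Positions are from GENCODE 29, promoters from RefSeq. The 10 members and the gene lists were chosen with earlier results of these data known. Beside the members, the text names in each comparison the called genes with the 2 largest changes of each list, every listed gene called in the interaction, and the 3 most similar genes of the 3 members with the widest range. Genes outside that rule in a comparison (KLF12, KLF16, SP2, SMAD7, SMAD2, TGFBR2, HDAC1, ENG, SIN3A, SIN3B, LGALS3, MAPK7, TGFBR1 and others named as gained or lost under a rescaling) were singled out after their values were seen. Replicate numbers were checked for pairing by the correlation of same-numbered deviations from group means. This was over 0.1 in 9 of 18 pairs (-0.09 to 0.69). Between Dox plus inhibitor and the inhibitor all 3 were over 0.1 (0.13 to 0.55). The block there left the count of called members at 2 and moved all calls to 4548, against 2304 without it. The alternatives were another pseudocount, other filters, 2 rescalings, single-contrast fits, no trend, the block, removal of a length and GC trend, and each library left out.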

Additional observations from a re-analysis of the deposited data

How the results depend on the processing

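The depth behind the FPKM values is unknown, so no counting error could be set beside low genes such as KLF2, KLF4 and KLF9. The calls for KLF6, KLF7, KLF10 and KLF13, and KLF5 for Dox plus inhibitor against Dox, were made in every alternative in which the gene was tested, each library left out included. The cause of the changes below was not tested. For Dox against DMSO, called members numbered 2 and became 4 on median-ratio scaled values, 4 on quantile-normalized ones and 5 when the trend over length and GC content was taken out and the replicate block put in (2 to 4 with 1 library left out). All calls in that comparison numbered 2269, and 3741 with the replicate block, 4050 with the block and the trend removed, and 1427 to 2665 with 1 library left out. For Dox plus inhibitor against the inhibitor, 1 member was called among genes with a mean of at least 5 FPKM, where KLF13 was not tested, and 2 to 3 with 1 library left out. All calls there were 2304, and 1099 in a fit of those groups alone, 4548 with the block and 1121 to 2920 with 1 library left out. For both agents against DMSO, 5 members and 5137 genes were called with the block and the trend removed, against 3 members and 3238 genes, with 2 to 4 members and 2185 to 3707 genes with 1 library left out. With 1 library left out, the inhibitor against DMSO gave 4 to 6 members and 3683 to 5011 genes, and Dox plus inhibitor against Dox 4 to 7 members and 3057 to 4478 genes. In the interaction 1 member, KLF7, was called with a pseudocount of 0.1, after quantile normalization, with the block (0.37, adjusted p = 0.0367) and with the block and the trend removed (0.35, adjusted p = 0.0323). All interaction calls numbered 357, and 666 with the block, 811 with the trend removed, 1103 with both and 186 to 420 with 1 library left out. The rule for pairing, every same-number correlation over 0.1, was met in 1 of the 6 pairs of groups, Dox plus inhibitor with the inhibitor, and narrowly missed by the inhibitor with DMSO (0.686, 0.0974 and 0.505) and by Dox plus inhibitor with DMSO (0.475, 0.0649 and 0.321). Whether the numbers mark shared batches is thus not settled. Each of the 12 libraries was set against each other group, 36 comparisons that reuse the same libraries and are not independent. In 19 of the 36 a library correlated best with its own number, where 12 would by chance. That count is a hint from the data and not the design. With the block KLF3 was called for Dox against DMSO (0.25, adjusted p = 0.0367) and KLF5 for both agents against DMSO (-0.25, adjusted p = 0.0304). Changes that were not called turned in sign as follows. For the inhibitor against DMSO, KLF4 was 0.0280 on median-ratio scaled values and 0.0264 on quantile-normalized ones, and -0.124 to 0.0366 with 1 library left out. For Dox plus inhibitor against the inhibitor, KLF3 was -0.0304 on median-ratio scaled values, -0.0692 on quantile-normalized ones and -0.00434 with the trend removed, with or without the block (-0.0408 to 0.112 with 1 library left out). KLF5 was -0.0470, -0.0431 and -0.0904 in the same settings (-0.0432 to 0.106), and KLF10 ranged over -0.0214 to 0.0208 with 1 library left out. For both agents against DMSO, KLF11 was 0.0158 on median-ratio scaled values and 0.00890 with the trend removed (-0.0567 to 0.0297), and KLF13 was 0.0247 and 0.0635 (-0.0581 to 0.0395). The interaction of KLF2 was 0.00749 with the trend removed (-0.277 to 0.0419), and that of KLF6 ranged over -0.0545 to 0.00953. The fit of a comparison's own groups could not be made for the interaction.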
